A study of Mus musculus with 10 samples.

Results

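The CCN genes encode a family of matricellular proteins, secreted proteins that sit in the extracellular matrix and signal to cells without forming its scaffold. The 5 members followed here, Ccn1, Ccn2, Ccn3, Ccn4 and Ccn5, were matched by their gene symbols in GRCm38 and are 5 of the 48709 genes in each deposited table; the rule itself uses symbols and no measured value. Ccn6, the remaining member of the vertebrate family, was not in the set. Of the 5, only Ccn1 and Ccn2 were read at a level that could be compared between groups, and Ccn2 varied more between libraries, 350-fold from lowest to highest against 14.5-fold for Ccn1.

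CCN proteins bind integrins, the heparan sulfate proteoglycan syndecan 4 and Lrp receptors, and through them affect adhesion, migration and proliferation. Ccn1, long called Cyr61, and Ccn2, long called Ctgf, are the most widely used readouts of the transcriptional coactivators Yap and Taz, which bind Tead factors on DNA and are held in the cytoplasm when the Lats kinases phosphorylate them; Srf and the Smad factors of the TGF-β pathway also drive both genes. Ccn3 (Nov) is often described as opposing Ccn2, whereas Ccn4 (Wisp1) and Ccn5 (Wisp2) were named for their induction by Wnt1.

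TRULI, a small-molecule inhibitor of the Lats kinases, was applied to utricles, the gravity-sensing vestibular organs of the inner ear, explanted from mice at postnatal day 21. All mice carried the Lfng-EGFP reporter, whose fluorescence marks supporting cells, and the cells were purified by sorting on it, so that every library comes from Lfng-GFP+ cells of cultured explants. The 4 groups were DMSO_d5 (5 days in 0.1% DMSO, n = 3), TRULI_d5 (5 days in 10 µM TRULI with 0.1% DMSO, n = 3), DMSO_d10 (5 days in 0.1% DMSO and 5 more days without it, n = 2) and TRULI_d10 (5 days in 10 µM TRULI with 0.1% DMSO and 5 more days without it, n = 2). What separates replicates, such as animals or cultures, is not given for each library, so the p-values measure the spread between these libraries only, and lower RNA per cell cannot be told apart from fewer expressing cells.

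For 4 of the 10 libraries the sample label and the name of the deposited table give different conditions. The libraries labelled TRULI_d5 replicates 1 and 2 were deposited as DMSO_d10 replicates 1 and 2, and those labelled DMSO_d10 replicates 1 and 2 were deposited as TRULI_d5 replicates 2 and 3. The library labelled TRULI_d5 replicate 3 was deposited as TRULI_d5 replicate 1, and the 3 DMSO_d5 and 2 TRULI_d10 libraries carry the same name in both. Since the members' results turn on this, each comparison is given by sample label first and by deposited name beside it. Totals ran from 2463872 to 6255149 counts. The mitochondrial ribosomal RNA mt-Rnr2 took 13.0% to 26.4% of the counts in 6 libraries and 1.45% to 2.53% in the other 4. By sample label these 4 are TRULI_d5 replicates 1 and 2 and both TRULI_d10 libraries. By deposited name they are all the DMSO_d10 and TRULI_d10 libraries, and the 6 are all the DMSO_d5 and TRULI_d5 libraries. In that source the share of mt-Rnr2 and the day of culture cannot be told apart. All 10 supporting-cell markers examined were detected in every library. Lfng, the gene whose promoter drives the reporter, is among them.

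The genes lie on 4 chromosomes of GRCm38: Ccn1 (ENSMUSG00000028195) at chr3:145646976-145649981 on the minus strand, Ccn2 (ENSMUSG00000019997) at chr10:24595442-24598683 on the plus strand, Ccn3 (ENSMUSG00000037362) at chr15:54745702-54754039, Ccn4 (ENSMUSG00000005124) at chr15:66891320-66923201 and Ccn5 (ENSMUSG00000027656) at chr2:163820861-163833146, the last 3 on the plus strand. The RefSeq promoter table used here holds 1 of the 5, Ccn1. Its 250 bases before the start of transcription are shown because Tead factors are the DNA-binding partners of Yap; capitals mark the motifs found, the Tead core and the TATA box.

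Ccn1, chr3:145649986-145650235, minus strand, GRCm38.p6: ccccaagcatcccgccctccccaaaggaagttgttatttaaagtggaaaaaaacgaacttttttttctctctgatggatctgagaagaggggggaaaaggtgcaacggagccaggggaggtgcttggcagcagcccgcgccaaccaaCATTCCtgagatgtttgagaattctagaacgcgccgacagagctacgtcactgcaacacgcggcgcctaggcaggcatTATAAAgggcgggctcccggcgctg

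In the Ccn1 window of 250 bases before to 50 after the start, the Tead core GGAATG was found on the opposite strand as CATTCC, 103 to 98 bases before the start, and TATAAA was found 25 to 20 bases before it. The AP-1 letters TGANTCA and the CArG box, to which Srf binds, were not found on either strand in this window. Among the 32851 promoters of the table, 14.7% hold the Tead core, 13.6% hold TATAAA, 7.81% hold TGANTCA and 1.63% hold a CArG box. None of these motifs overlapped another in Ccn1.

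Stretches that members share bear on whether their reads can be told apart. The longest run of bases that a Ccn1 and a Ccn2 transcript of GENCODE M21 share exactly is 18 bases, ggacggctgcggctgctg, in the coding part of exon 2 of both genes (chr3:145649341-145649358, minus strand, and chr10:24595962-24595979, plus strand). It is shown because it is the longest stretch in which a read could match both expressed members exactly. Over all 10 pairs of members the longest shared run was 10 to 28 bases.

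Ccn3 was not detected. None of the 41459625 counts summed over the 10 libraries fell on it, which allows up to 0.0724 CPM, the level of 3 counts in the total, for counting error only (CPM are counts scaled to a common library size). Ccn4 had 12 counts, spread over 7 libraries with at most 4 in any, and Ccn5 had 5 counts in 4 libraries with at most 2. These 3 genes did not pass the filter on low counts in any comparison, so no difference between groups was detectable for them at this depth. Without the filter, edgeR's log2 fold changes of Ccn4 and Ccn5 had intervals reaching far on both sides of 0, as in TRULI_d5 against DMSO_d5 by sample label, where that of Ccn4 ran from -2.69 to 5.57.

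Ccn1 was abundant in every library. It was read at 382, 272 and 408 CPM (scaled over all 10 libraries by TMM) in DMSO_d5 replicates 1 to 3, at 115, 62.9 and 424 CPM in the libraries labelled TRULI_d5 replicates 1 to 3, at 513 and 628 CPM in those labelled DMSO_d10, and at 138 and 43.3 CPM in TRULI_d10. The 4 lowest libraries were the 4 in which mt-Rnr2 took the smallest share, at 43.3 to 138 CPM of Ccn1, and the other 6 lay between 272 and 628 CPM, a gap of 1.97-fold. Corrected for transcript length and set against protein-coding counts, Ccn1 ranged from 23.9 to 440 FPKM and exceeded 84.7% to 99.3% of protein-coding genes.

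Ccn2 was read at 15.6, 8.88 and 11.7 CPM in DMSO_d5, at 2.03, 6.47 and 711 CPM in the libraries labelled TRULI_d5 replicates 1 to 3, at 488 and 481 CPM in those labelled DMSO_d10, and at 15.3 and 3.66 CPM in TRULI_d10. The libraries fell into a high and a low set. In 3 libraries it lay at 481 CPM or more, and in 7 it lay at 15.6 CPM or less, with a gap of 30.9-fold between them and a range of 350-fold from the lowest library to the highest. The 3 high libraries are exactly those deposited as TRULI_d5, whereas by sample label they are 1 TRULI_d5 library and both DMSO_d10 libraries. On the FPKM scale Ccn2 ran from 1.0 to 444, above 50.9% of protein-coding genes in its lowest library and 99.4% in its highest.

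**Figure D1:**
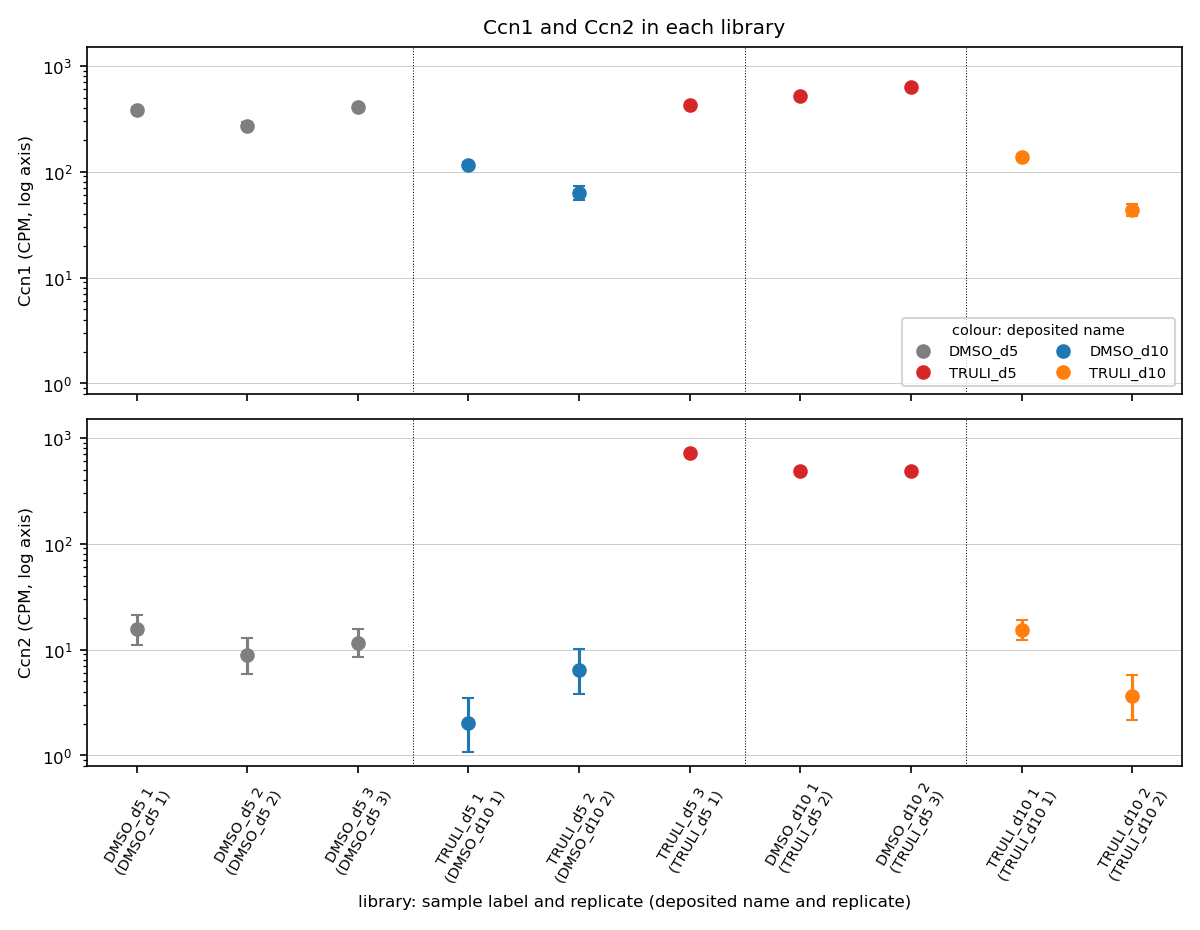
CPM of Ccn1 (top) and Ccn2 (bottom) on log axes in the 10 libraries, ordered by sample label with the deposited name in brackets and in the colour; bars are 95% Poisson intervals of the count. Ccn2 sits at 481 to 711 CPM in the 3 libraries deposited as TRULI_d5 and at 2.03 to 15.6 CPM in the other 7, while Ccn1 moves over 43.3 to 628 CPM.

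After 5 days, the question was whether inhibition of Lats raised these readouts of Yap. By sample label neither member passed the threshold (set in edgeR at an adjusted p below 0.05 together with a log2 change of more than 1 in either direction): 0 of the 2 members tested were called, where 0.00903% of the 11071 genes tested were. Ccn2 was at 240 ± 408 CPM (SD, n = 3) in TRULI_d5 and at 12.0 ± 3.37 CPM (n = 3) in DMSO_d5, a log2 fold change of 4.35 (SE 1.74, adjusted p = 0.351). That mean rests on the library labelled replicate 3 alone. The other TRULI_d5 libraries lay below all 3 controls, and without replicate 3 the log2 fold change was -1.56 (adjusted p = 0.127). DESeq2 called 293 genes, not Ccn1, and gave no adjusted p for Ccn2 (4.33); the number of genes at an unadjusted p under 0.05 by edgeR was 1515. Ccn1 was at 201 ± 195 CPM in TRULI_d5 and 354 ± 72.1 CPM in DMSO_d5, with a log2 fold change of -0.79 (SE 0.63, adjusted p = 0.567); without replicate 3 it was -2.0 (adjusted p = 0.0118), past the threshold.

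By deposited name, Ccn2 rose at 5 days and Ccn1 did not pass the threshold, so that 1 of 2 members was called, against 3.07% of the 11529 genes tested. The 3 libraries of Ccn2 deposited as TRULI_d5 averaged 560 ± 131 CPM (SD, n = 3), all far above the 3 controls, a log2 fold change of 5.57 (SE 0.31, adjusted p = 2.76e-05). Over the 12 alternatives to this fit it ran from 5.35 to 5.77 and stayed past the threshold in each. Ccn1 was at 522 ± 102 CPM against 354 ± 72.1 CPM, with the lowest TRULI_d5 library (424 CPM) just above the highest control (408 CPM). Its log2 fold change was 0.58 (SE 0.24, 95% interval 0.05 to 1.12, adjusted p = 0.262). With the replicate number as a block, the number of genes called changed from 354 to 698, and neither member's call changed. Leaving aside the disputed libraries, the library that is TRULI_d5 in both sources and the 3 DMSO_d5 libraries gave 5.89 for Ccn2 (SE 0.34, adjusted p = 6.40e-05) and 0.26 for Ccn1 (SE 0.35, adjusted p = 0.877), a fit in which the single TRULI_d5 library was assumed to vary as the controls do.

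At day 10, 5 days after the compound was removed, the comparison asks whether the members still differed from control. By sample label Ccn2 fell, from 485 ± 4.96 CPM (SD, n = 2) in DMSO_d10 to 9.48 ± 8.22 CPM (n = 2) in TRULI_d10, a log2 fold change of -5.65 (SE 0.68, adjusted p = 0.0312). It was the only member called of the 2 tested, beside 2.07% of 12242 genes. When all 10 libraries entered one fit, its adjusted p was 0.194. Ccn1 was at 571 ± 81.5 CPM in DMSO_d10 and 90.6 ± 66.8 CPM in TRULI_d10, with every TRULI_d10 library below both controls, a log2 fold change of -2.65 (SE 0.56, adjusted p = 0.0564). That narrowly missed the threshold. It passed with DESeq2 (-2.62, adjusted p = 2.90e-05) but not with all 10 libraries in one edgeR fit (-2.65, adjusted p = 0.177). Leaving out a library leaves 1 in its group. The log2 fold change was then -3.74 without TRULI_d10 replicate 1 and -2.06 without replicate 2. It was -2.82 and -2.47 without the libraries labelled DMSO_d10 replicates 1 and 2. The 2 groups also differ in the share of mt-Rnr2, at 13.0% and 23.7% of counts in the libraries labelled DMSO_d10 and 1.45% and 2.5% in TRULI_d10. With library sizes from protein-coding genes only, the log2 fold changes were -5.67 for Ccn2 and -2.66 for Ccn1. That fit only rescales the libraries, and the part of the difference in share was not tested.

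By deposited name neither member differed past the threshold after withdrawal. Ccn2 was at 2.03 and 6.47 CPM in the libraries deposited as DMSO_d10 and at 15.3 and 3.66 CPM in TRULI_d10, so the groups overlapped, and its log2 fold change was 1.21 with a 95% interval from -1.21 to 3.63 (adjusted p = 1.0). Ccn1 was at 115 and 62.9 CPM against 138 and 43.3 CPM, a log2 fold change of 0.05 with an interval from -1.33 to 1.44 (adjusted p = 1.0). In this comparison edgeR called 0% of the 11568 genes tested, 532 genes had an unadjusted p under 0.05, and DESeq2 called 54 genes and neither member. Both groups hold the low mt-Rnr2 share. The directions turned on single libraries: without TRULI_d10 replicate 1 the log2 fold changes were -0.19 for Ccn2 and -1.05 for Ccn1.

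TRULI_d10 against TRULI_d5 compares cells after removal of TRULI with cells still in it, and spans day 5 to day 10 of culture as well, so that removal and time in culture cannot be told apart in this comparison alone. By sample label, Ccn2 had a log2 fold change of -4.64 in TRULI_d10 against TRULI_d5 (SE 2.21, adjusted p = 0.999) and Ccn1 of -1.13 (SE 0.86, adjusted p = 0.999). EdgeR called 0 of 2 members and 0% of the 12288 genes tested, with 399 genes at an unadjusted p under 0.05; DESeq2 called 10 genes, not Ccn1, and gave no adjusted p for Ccn2. Without the library labelled TRULI_d5 replicate 3 the values became 1.21 and 0.05, because the libraries left are those compared as TRULI_d10 and DMSO_d10 by deposited name.

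By deposited name both members fell after withdrawal, 2 of 2 called against 13.9% of the 12450 genes tested. Ccn2 fell by 5.84 on the log2 scale (SE 0.65, adjusted p = 0.00783), to 9.48 ± 8.22 CPM from 560 ± 131 CPM, and kept the call without any single library (-7.21 to -5.20). Ccn1 fell by 2.5 (SE 0.51, adjusted p = 0.0212), to 90.6 ± 66.8 CPM from 522 ± 102 CPM, with no overlap between the groups. In the DMSO groups by name Ccn1 fell by 2.0 over the same days (adjusted p = 0.0118). Supporting-cell markers moved with it: 4 of 10 (Otoa, Lfng, Slc1a3 and Sox2) were called lower in TRULI_d10, at a summed 4787 and 5315 CPM against 7661 to 8950 CPM. All 6 cell-cycle markers were called lower as well, and 1 of 1 Schwann-cell marker tested was called higher. The part of these lists in the fall of Ccn1 was not tested. The groups also differ in the share of mt-Rnr2 (13.0% to 23.7% against 1.45% and 2.5%). With library sizes from protein-coding genes only, the values were -5.85 for Ccn2 and -2.51 for Ccn1. That fit only rescales the libraries, and the part of the share was not tested. The call of Ccn1 was lost when TRULI_d5 replicate 1, 2 or 3 of the deposited names was left out (adjusted p = 0.0564, 0.0804 and 0.0598). Its log2 fold changes were then between -2.65 and -2.33.

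Between the control groups, the 2 sources gave opposite directions. By sample label Ccn2 rose from day 5 to day 10 in DMSO, with a log2 fold change of 5.35 (SE 0.30, adjusted p = 2.14e-05), and Ccn1 changed by 0.70 (SE 0.27, 95% interval 0.11 to 1.29, adjusted p = 0.247), so 1 of 2 members was called beside 2.44% of 12017 genes. The call for Ccn2 was lost with all 10 libraries in one fit (5.33, adjusted p = 0.577). By deposited name Ccn1 fell by 2.0 (SE 0.36, adjusted p = 0.0118), from 354 ± 72.1 CPM to 89.1 ± 37.1 CPM (n = 2), while Ccn2 was at 12.0 ± 3.37 CPM and 4.25 ± 3.13 CPM, a log2 fold change of -1.56 (SE 0.67, adjusted p = 0.127). Here 1 of 2 members was called beside 18.8% of 11382 genes, so a call was common. Without DMSO_d5 replicate 2 the adjusted p of Ccn1 was 0.0632, and without the library deposited as DMSO_d10 replicate 2 Ccn2 passed the threshold (-2.52, adjusted p = 0.0367). Supporting-cell markers were lower here too, with 3 of 10 (Lfng, Otoa and Slc1a3) called and sums of 3821 and 6448 CPM against 8478 to 13616.5 CPM. Of hair-cell markers, 5 of 9 tested were called lower, with overlapping sums. Their median log2 fold change was -2.50, beside -0.97 for supporting-cell markers. The part of either list was not tested. These groups differ in the share of mt-Rnr2 as well, and library sizes from protein-coding genes left Ccn1 at -1.97 (adjusted p = 0.0114). That fit only rescales the libraries, and the part of the share was not tested. This comparison and that of TRULI_d5 with DMSO_d5 share the DMSO_d5 libraries.

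**Figure D2:**
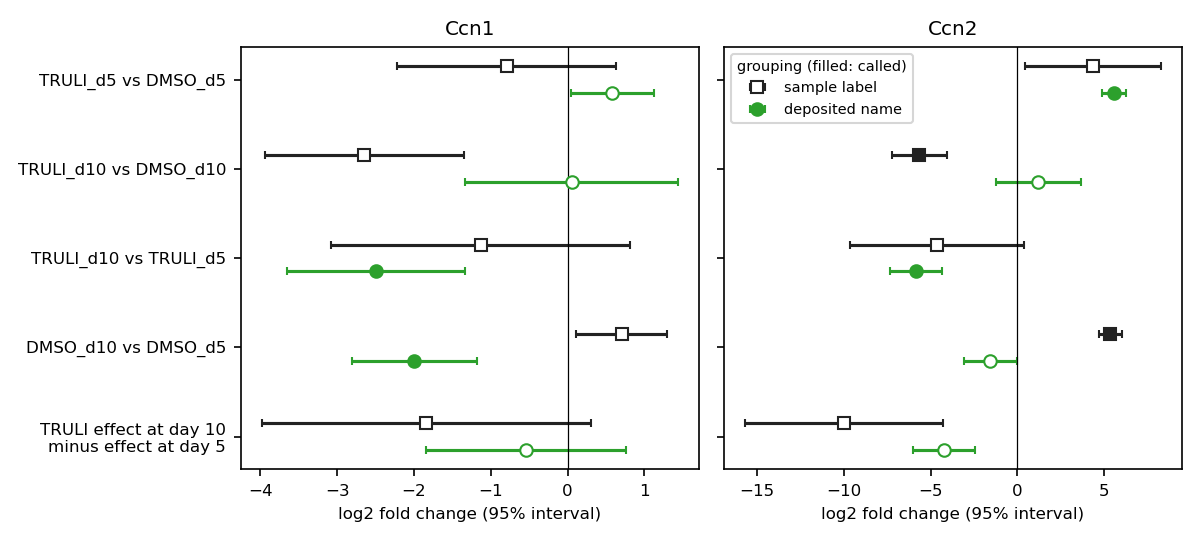
Log2 fold changes of Ccn1 and Ccn2 with 95% intervals in the 4 comparisons and in the difference between the TRULI effects, by sample label (black squares) and by deposited name (green circles); filled symbols passed the threshold. Ccn2 passed in 2 comparisons of each source but not in the same ones, and its value in TRULI_d10 against DMSO_d10 moved from -5.65 by label to 1.21 by name.

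The difference between the effect of TRULI at 10 days and at 5 days was tested as an interaction in all 10 libraries. For Ccn2 it was -9.98 on the log2 scale by sample label (SE 2.61, adjusted p = 0.649) and -4.24 by deposited name (SE 0.82, adjusted p = 0.202). Neither passed the adjusted threshold, and edgeR called 0% of the 12841 genes in either source, with 874 and 1217 genes at an unadjusted p under 0.05. DESeq2 called 45 and 79 genes. It gave no adjusted p for Ccn2 by label, and by name it called Ccn2 (-4.31, adjusted p = 6.03e-05), as did edgeR without the library deposited as DMSO_d10 replicate 1 (-4.99, adjusted p = 0.0377) or TRULI_d10 replicate 1 (-5.62, adjusted p = 0.0413). For Ccn1 the difference was -1.84 by label (SE 0.98, adjusted p = 0.791) and -0.54 by name (SE 0.60, adjusted p = 0.830).

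Ordered by mean level, the groups of Ccn1 by deposited name ran from TRULI_d5 through DMSO_d5 to TRULI_d10 and DMSO_d10, the last pair at 90.6 ± 66.8 and 89.1 ± 37.1 CPM. Of the neighbours in that order that were tested, TRULI_d5 and DMSO_d5 did not differ past the threshold, nor did TRULI_d10 and DMSO_d10. By sample label the order was DMSO_d10, DMSO_d5, TRULI_d5 and TRULI_d10, and no neighbouring groups differed past the threshold. For Ccn2 by deposited name, TRULI_d5 stood first and apart, and DMSO_d5, TRULI_d10 and DMSO_d10 followed within 4.25 to 12.0 CPM. By label, DMSO_d10 stood first at 485 ± 4.96 CPM, and TRULI_d5 followed at 240 ± 408 CPM, a mean that no single library of that group was near.

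The 2 expressed members differed in proportion as well as in level. Ccn1 exceeded Ccn2 in 9 of 10 libraries on the FPKM scale. The ratio of Ccn2 to Ccn1 within a library was 0.0330, 0.0269 and 0.0233 in DMSO_d5, 0.0146, 0.0849 and 1.38 in the libraries labelled TRULI_d5 replicates 1 to 3, 0.783 and 0.630 in those labelled DMSO_d10, and 0.0915 and 0.0697 in TRULI_d10. The scaling of a library cancels in this ratio. The 3 libraries deposited as TRULI_d5 again stood apart, at 0.630 to 1.38 against 0.0146 to 0.0915 in the other 7.

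This ratio was chosen after the values were seen, and 8 comparisons of its log2 were made, 4 in each source. By deposited name the mean log2 ratio was higher by 5.00 in TRULI_d5 than in DMSO_d5, with higher values in 3 of 3 libraries (two-sided exact permutation test, p = 0.1, which is the smallest p that 3 against 3 libraries allow; 0.533 after Benjamini-Hochberg adjustment over 8). By sample label that difference was 2.12, with overlapping groups (exact p = 0.4, adjusted 0.64). In the other comparisons, with 2 libraries in a group, the smallest p possible was 0.2 or 0.333. TRULI_d10 and DMSO_d5, which carry the same condition in both sources, held mean log2 ratios of -3.65 ± 0.28 (SD, n = 2) and -5.19 ± 0.25 (n = 3).

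**Figure D3:**
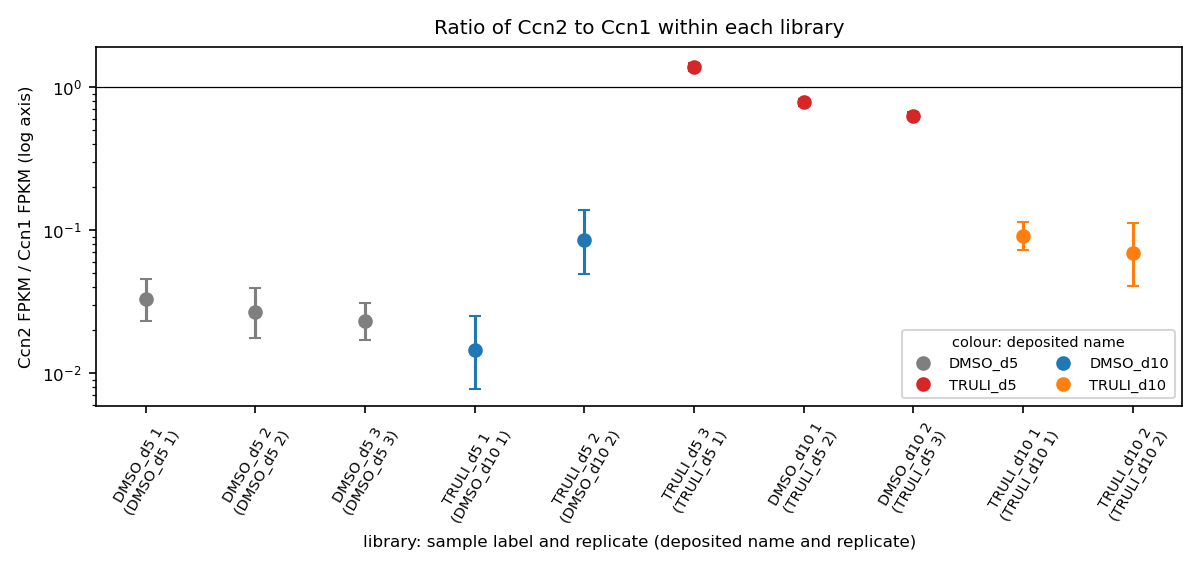
Ratio of Ccn2 to Ccn1 in FPKM within each library, on a log axis with a line at 1, in the order of the sample labels and coloured by deposited name; bars are 95% intervals from the counts. The 3 libraries deposited as TRULI_d5 lie at 0.630 to 1.38 and the other 7 at 0.0146 to 0.0915.

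Among 12841 genes, those whose log2 CPM over the 10 libraries was most like that of Ccn2 were Ajuba, Cdca8, Plk1, Cysltr2 and Foxj1, with Pearson's r between 0.960 and 0.968. Ajuba encodes a LIM-domain scaffold that binds Lats kinases and is itself a Yap target, Plk1 a mitotic kinase, Cdca8 a subunit of the chromosomal passenger complex, Cysltr2 a leukotriene receptor and Foxj1 a regulator of motile cilia. Since the libraries fall into a high and a low set for Ccn2, r here mainly ranks how cleanly a gene separates the same 3 libraries from the other 7. Ajuba was at 73.0 to 142 CPM in the 3 and at 4.68 to 12.4 CPM in the 7. The genes nearest to Ccn1 were Tesk1, Lonp2, Ttc17, Kif21a and Klhdc4, with r between 0.977 and 0.984. Of these, Tesk1 encodes a kinase of cofilin, Lonp2 a peroxisomal protease and Kif21a a kinesin, and none is a member of the Yap target list used here. In each of the 5 genes the 4 libraries of low mt-Rnr2 share lay below the other 6, as for Lonp2 at 30.7 to 41.5 CPM against 59.7 to 69.9 CPM.

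**Figure D4:**
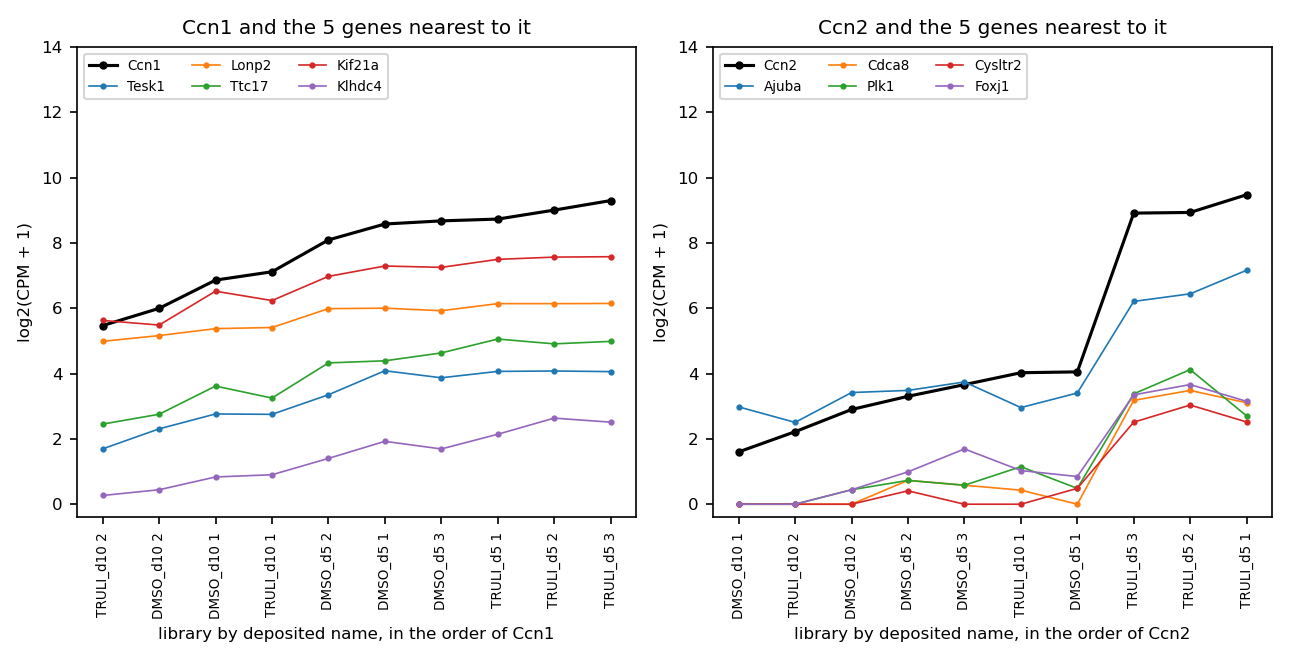
Log2(CPM + 1) of Ccn1 (left) and Ccn2 (right) in black and of the 5 genes with the highest Pearson's r to each, with the 10 libraries in the order of the member's own level and named as deposited. The line of Ccn2 steps up between DMSO_d5 replicate 1 (15.6 CPM) and TRULI_d5 replicate 3 (481 CPM), and that of Ccn1 climbs in smaller steps.

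Cell-cycle markers moved with Ccn2. All 6 (Mki67, Top2a, Birc5, Ccnb1, Cdk1 and Aurkb) were detected in the 3 libraries with high Ccn2, where their summed level was 73.3 to 354 CPM, and 2 to 5 were detected in the other 7, at 1.80 to 21.2 CPM. By deposited name 4 of 5 tested rose at 5 days (Mki67, Ccnb1, Cdk1 and Top2a), beside 3.07% of all genes called. In TRULI_d10 against DMSO_d10 by name 0 of 1 was called, beside 0% of all genes. None was at an unadjusted p under 0.05 by edgeR. By sample label none was tested at 5 days. In TRULI_d10 against DMSO_d10 by label 6 of 6 were called lower, beside 2.07% of all genes. From DMSO_d5 to DMSO_d10 by label 4 of 6 were called higher, beside 2.44% of all genes. The part of these markers in the level of Ccn2 was not tested. Fibroblasts and endothelium are rich sources of both Ccn1 and Ccn2. The 10 fibroblast or mesenchymal markers summed to 38.5 to 66.6 CPM in the 3 libraries with high Ccn2, and to 19.98 to 97.5 CPM in the other 7. In the comparison by name in which Ccn2 rose at 5 days, all 3 TRULI_d5 libraries (7 to 10 markers detected) lay above the 3 DMSO_d5 libraries, which were at 19.98 to 38.2 CPM with 4 to 6 detected. Immune markers were at 4.97 to 7.39 CPM against 0.992 to 2.0 CPM in the same groups. That sum was nearly all Cd68, with 229 counts over the 10 libraries against at most 6.87 for any other immune marker. Of hair-cell markers, 7 of 9 had an unadjusted p under 0.05, where 1887 of the 11529 genes tested by edgeR did. The hair-cell markers had a median log2 fold change of 1.45, beside 0.03 over all genes. None of them was called by edgeR, and their sums overlapped. Whether cells of these kinds had a part in the rise of Ccn2 was not tested. The 6 endothelial markers summed to 2.95 CPM at most, with Tie1 and Emcn at 0 throughout. Over all libraries immune markers summed to at most 18.1 CPM, melanocyte markers to at most 14.1 CPM and hair-cell markers to 318 to 1224 CPM. Supporting-cell and Schwann-cell markers split as Ccn1 did. The supporting-cell sum was 3821 to 6448 CPM in the 4 libraries with low Ccn1 and 7661 to 13616.5 CPM in the other 6, and the Schwann-cell sum was 53.2 to 117 CPM against 22.8 to 37.7 CPM. Their part in the level of Ccn1 was not tested. Cx3cr1 of the immune list and Tyr and Mlana of the melanocyte list were at 0 in every library.

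The receptors for CCN proteins were largely present. Of the receptor genes examined, Itgam was at 0 in all 10 libraries, and Itgav, a subunit of the αv integrins, was read at 148 to 631 CPM. After 5 days by sample label, 0 of 11 receptors tested were called (median log2 fold change 0.26, beside 0.05 over all genes), with 3 at an unadjusted p under 0.05; the lowest adjusted p were those of Lrp1 (1.44), Itgb5 (1.90), Itga5 (1.70) and Itgb3 (-1.16), at 0.332 to 0.370. By deposited name, 0 of 10 were called (median -0.39 beside 0.03), with Lrp1 at 1.41 (SE 0.40, adjusted p = 0.0970) and Itgav at -0.85 (SE 0.23, adjusted p = 0.0766). After withdrawal, Itgb5 rose against control by label (2.45, adjusted p = 0.0459), 1 of 11 receptors tested beside 2.07% of all genes. By name, Itgb5 (2.73, adjusted p = 0.0135) and Itgav (1.66, adjusted p = 0.0138) rose from TRULI_d5 to TRULI_d10. These were 2 of 11 tested, where 13.9% of all genes were called. Itgb5 also rose from DMSO_d5 to DMSO_d10 by name (2.41, adjusted p = 0.00612), 1 of 11 tested where 18.8% of all genes were called.

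Of 20 genes that feed into CCN transcription (Yap and Taz, Tead, Lats, Srf, Mrtf, TGF-β and Smad genes), 19 were tested at 5 days. By sample label none was called by edgeR, at a median of 0.28 beside 0.05 over all genes, and 4 were at an unadjusted p under 0.05: Wwtr1, which encodes Taz (1.25), Tead1 (1.03), Lats2 (1.48) and Smad3 (0.81), at adjusted p of 0.332 to 0.363. By deposited name Lats2, one of the kinases TRULI inhibits, rose (1.48, SE 0.33, adjusted p = 0.0365). It was the only 1 of 19 called, beside 3.07% of all genes, at a median of 0.09 beside 0.03. Tead1 was at 1.03 (adjusted p = 0.0605). After withdrawal, Smad4 rose in TRULI_d10 against DMSO_d10 by label (1.79, adjusted p = 0.0459), 1 of 20 tested beside 2.07% of all genes. None was called by name, with none at an unadjusted p under 0.05 by edgeR either. Against TRULI_d5 by name, Smad4, Wwtr1 and Lats1 rose and Smad2 fell, 4 of 19 tested where 13.9% of all genes were called. From DMSO_d5 to DMSO_d10 by name, Wwtr1 and Smad4 rose, 2 of 19 where 18.8% of all genes were called.

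By deposited name the log2 fold change of Ccn2 at 5 days (5.57) was larger than that of any tested Yap target outside the family; by sample label its 4.35, also the largest, did not pass the threshold and was -1.56 without the library labelled TRULI_d5 replicate 3. By sample label 0 of 16 targets tested were called (median 0.08), with 3 at an unadjusted p under 0.05, and the lowest adjusted p were those of Myof (-1.07), Gadd45b (1.79), Ptpn14 (1.57) and Ajuba (2.32), at 0.327 to 0.366. By deposited name 4 rose and 2 fell of 16, where 3.07% of all genes were called, at a median of 0.44 beside 0.03 over all genes. Ajuba rose by 3.23 (SE 0.31, adjusted p = 0.00122), Amotl2, an angiomotin that holds Yap at junctions, by 1.83 (adjusted p = 0.00765) and Igfbp3, a secreted binding protein of insulin-like growth factors, by 1.08 (adjusted p = 0.0267), while Crim1, a transmembrane regulator of BMP signalling, fell by 1.24 (adjusted p = 0.0101). Foxf2 was at 0 in every library, and Ankrd1, another widely used readout, had 22 counts in 5 libraries and was not tested; it is named here after its values were seen. In TRULI_d10 against DMSO_d10, Ajuba and Igfbp3 fell by label (-3.77 and -2.62), 2 of 16 tested beside 2.07% of all genes. By name 0 of 17 were called, with 1 at an unadjusted p under 0.05 by edgeR. From TRULI_d5 to TRULI_d10 by name, Ajuba, Igfbp3 and F3 fell and Gadd45b rose, of 16 tested, where 13.9% of all genes were called. From DMSO_d5 to DMSO_d10 by name, 1 target rose and 1 fell of 16 tested, where 18.8% of all genes were called. There 7 targets were at an unadjusted p under 0.05 by edgeR, beside 4168 of 11382 genes. Their median log2 fold change was -0.36, beside -0.04 over all genes.

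**Figure D5:**
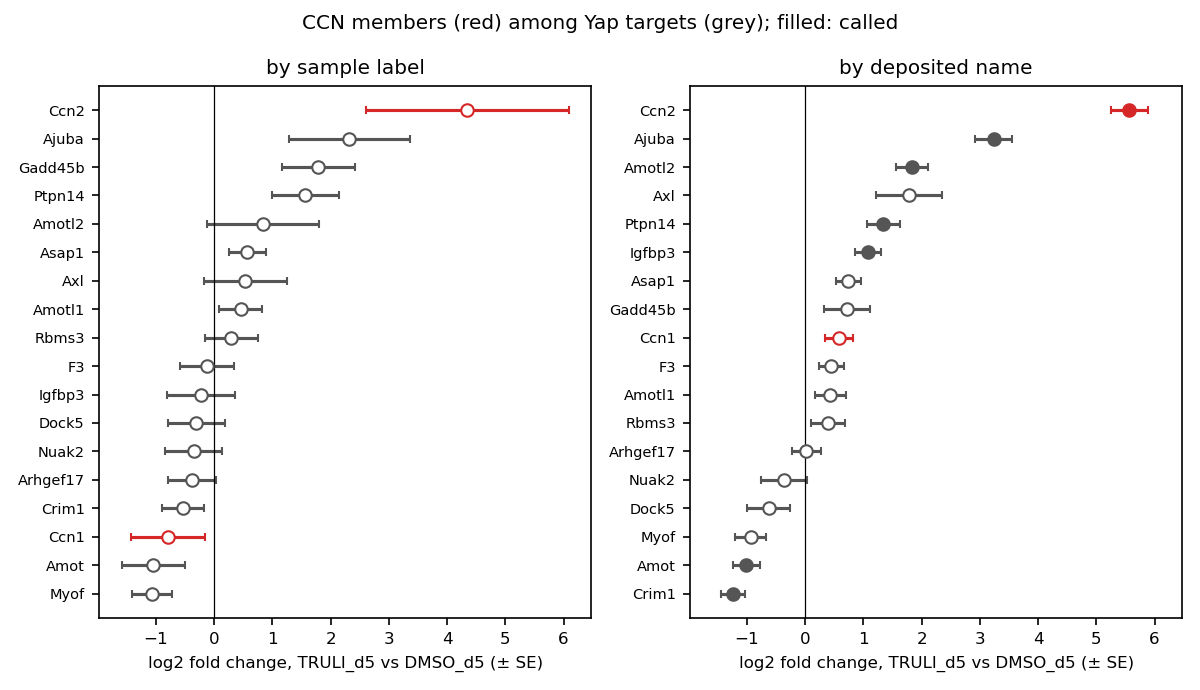
Log2 fold changes with their standard errors in TRULI_d5 against DMSO_d5 for Ccn1 and Ccn2 (red) and the 16 tested Yap targets outside the family (grey), by sample label (left) and by deposited name (right); filled symbols passed the threshold. Ccn2 lies highest in both panels, at 4.35 and 5.57, and Ccn1 lies below 0 on the left (-0.79) and above it on the right (0.58).

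Other matricellular genes offered a comparison with proteins of similar place but other structure. Of 14, Thbs4 was at 0 throughout and 7 or 8 were tested at 5 days. By sample label none was called by edgeR or was at an unadjusted p under 0.05 (median 0.28); Smoc1, Tnc, Sparcl1 and Sparc had the lowest adjusted p, at 0.508 to 0.607. By deposited name Postn, which encodes periostin, rose by 5.32 (SE 1.04, adjusted p = 0.0221) from a low level, being read at 0 to 52.4 CPM, and Tnc, which encodes tenascin-C, rose by 1.84 (SE 0.42, adjusted p = 0.0413); Thbs1, a thrombospondin, was at 1.24 (adjusted p = 0.0630). Postn and Tnc were the 2 called of 8 tested, beside 3.07% of all genes, at a median of 0.15. After withdrawal Sparcl1 fell against control by label (-2.86, adjusted p = 0.0445), 1 of 9 tested beside 2.07% of all genes. By name Sparcl1 and Thbs1 fell from TRULI_d5 to TRULI_d10, 2 of 9 tested where 13.9% of all genes were called. Sparcl1, Thbs1 and Fbln5 fell from DMSO_d5 to DMSO_d10 by name, 3 of 8 tested where 18.8% were called. Postn rose from DMSO_d5 to DMSO_d10 by label (5.68, adjusted p = 0.0112), 1 of 8 tested beside 2.44% of all genes.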

How the data were processed

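RNA from sorted supporting cells was sequenced in 10 libraries. Alignment by the authors used STAR and the GRCm38 genome; the counting program is not given in the sources used here. The deposited tables hold expected counts per gene with no normalization, of which 3.53% are not whole, and effective lengths. They were rounded for tests. The library kit is described differently in the labels and the methods. The condition of a library is that of its sample label, with the name of its deposited table as an alternative. Counts of every pair of libraries differed beyond sampling noise (chi-square over its degrees of freedom at least 16.7).

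Symbols and positions came from GENCODE M21 and promoters from RefSeq. Groups were compared with edgeR 4.0.16 in R 4.3.3 (filterByExpr, TMM, quasi-likelihood test, 2 groups per fit, and all 10 libraries for the interaction), with Benjamini-Hochberg adjustment over all genes tested; DESeq2 1.42.0 was an alternative. FPKM divided counts by effective length and by the total over protein-coding genes. CPM of single libraries are precise to their Poisson intervals, which cover counting error only. Code was tested on simulated data. The members, lists, motifs and tests were chosen with earlier results of these data known. Every member was named; from other lists, at most the 4 genes with the lowest adjusted p at 5 days in either source, and the called genes where 5 or fewer were called. Same-numbered libraries deviated together at 5 days by deposited name (r = 0.33, 0.16 and 0.27 for replicates 1 to 3) and not by label (-0.12, 0.05 and -0.16). Same-numbered DMSO_d10 and TRULI_d10 libraries were at 0.19 by label and 0.16 by name. Deviations were taken from group means, so the r of 1 source depend on each other, and in groups of 2 they are equal. No source says that a number marks shared animals.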

Additional observations from a re-analysis of the deposited data

How the results depend on the processing

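The source of the condition decided most results: with the deposited name in place of the sample label, the number of members called became 1 at 5 days, 0 in TRULI_d10 against DMSO_d10 and 2 in TRULI_d10 against TRULI_d5. The direction turned for Ccn1 at 5 days (0.58) and at 10 days (0.051), for Ccn2 at 10 days (1.21), and in the DMSO groups for Ccn1 (-2.0) and Ccn2 (-1.56). Only 6 of the 10 libraries carry 1 condition. With those alone, the log2 fold change of Ccn2 was 5.89 at 5 days and -6.19 in TRULI_d10 against TRULI_d5, while Ccn1 reversed at 5 days (0.26). In both fits TRULI_d5 is 1 library, assumed to vary as the other group does. Groups of 2 libraries limit every comparison at day 10, and depth limits Ccn3, Ccn4 and Ccn5.

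Without the filter on low counts, 1 member was called at 5 days by label (beside 646 of 20196 genes) and 2 at 10 days (1751 of 19310). By label 1 was also called in TRULI_d10 against TRULI_d5 (68 of 19744) and 1 in the interaction (214 of 21582). By name 1 was called in the interaction, beside 191 genes up and 119 down of 21582. DESeq2 called 2 at 10 days by label (beside 1433 of 12945 genes) and 1 in the interaction by name (39 genes up and 40 down of 13208). All 10 libraries in one fit called 0 by label at 10 days and between the DMSO groups. Leaving out single libraries moved the members called between 0 and 1 at 5 days, 1 and 2 at 10 days by label, 1 and 2 in TRULI_d10 against TRULI_d5 by name, 0 and 2 between the DMSO groups by name, and 0 and 1 in the interaction by name. Without the library labelled TRULI_d5 replicate 3, Ccn2 reversed at 5 days (-1.56, over a range up to 4.93 without others), and so did Ccn1 (0.051, from -2.20) and Ccn2 (1.21, from -6.01) in TRULI_d10 against TRULI_d5. By name at 10 days, Ccn1 reversed without DMSO_d10 replicate 2 (-0.32), and Ccn1 (-1.05, up to 0.65 without others) and Ccn2 (-0.19, up to 2.24) without TRULI_d10 replicate 1. In the interaction by name, Ccn1 reversed without TRULI_d10 replicate 2 (0.066, from -1.61). The causes were not tested.

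With the replicate number as a block in edgeR, 2 members were called at 10 days by label (Ccn1 -2.86, adjusted p = 0.00233), beside 1269 of 12242 genes. Ccn2 reversed in TRULI_d10 against TRULI_d5 by label (1.16), and Ccn1 reversed at 10 days by name (-0.12). At 5 days by label Ccn2 was at 0.38 (adjusted p = 0.936). The block changed no other member's call.

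The number of genes called also moved by over 1.5 times. By label it was 1 at 5 days but 646 without the filter, 293 with DESeq2 and 134 with libraries of 1 condition; 253 at 10 days but 1269 with the block, 1751 without the filter, 1433 with DESeq2 and 0 with all 10 libraries; and 293 between the DMSO groups but 588, 792, 460 and 4 in the same order. By name it was 354 at 5 days but 698, 902, 601 and 109; 1729 in TRULI_d10 against TRULI_d5 but 1103 with the block, 2932 without the filter and 2706 with DESeq2; and 2138 between the DMSO groups but 1120 with the block. In the remaining comparisons edgeR called 0, against 68, 214, 197 and 310 without the filter (TRULI_d10 against TRULI_d5 and the interaction by label, then 10 days and the interaction by name). TRULI_d10 against TRULI_d5 by label reached 17 with the block and 14 with libraries of 1 condition. Leaving out 1 library gave 0 to 2138 at 5 days, 8 to 3154 at 10 days and 141 to 297 between the DMSO groups by label, and 54 to 386 at 5 days, 12 to 2581 in TRULI_d10 against TRULI_d5 and 4 to 4144 between the DMSO groups by name.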
